A study of Homo sapiens with 8 samples.

Results

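The contactins CNTN1 to CNTN6 are a family of neuronal adhesion genes, and their messenger RNA was followed here in 2 human neuroblastoma cell lines, NGP and CHLA-20, with and without an inhibitor of the arginine methyltransferase PRMT5. Members were the rows whose Ensembl identifier carries one of these 6 symbols in GENCODE release 29, which gave 6 genes of the 58721 counted. The family was selected on the change of CNTN6 with the inhibitor in CHLA-20, which was among the strongest increases there; the other 5 genes entered by name. For that reason all values of treatment in CHLA-20 are given as a description without a test, and so are the values of CNTN6 between the lines and the differences between the 2 treatment effects.

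There were 8 libraries in 4 groups of 2, which were NGP with JSK591, NGP with DMSO, CHLA-20 with JSK591 and CHLA-20 with DMSO. JSK591 is the inhibitor's name on the samples, while the treatment description says GSK591; the labels do not say whether both mean one compound. Exposure lasted 6 days at the IC50 dose, with no concentration given, and DMSO was the vehicle. The lines grew in different media (NGP in RPMI1640, CHLA-20 in IMEM with insulin, transferrin and selenite), so line and medium cannot be told apart. Nothing says that the 2 libraries of a group came from separate cultures, so p-values measure the spread between these libraries, which may be technical. NGP is known for amplification of MYCN and CHLA-20 for lacking it.

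Libraries held 33188542 to 34914902 counts assigned to genes, and 3 counts, the limit that a count of 0 allows, came to at most 0.0904 CPM, the unit used throughout, a gene's count scaled to a common library size (by edgeR's TMM method except for this limit). Such limits cover counting error only. Of the sympathetic markers, PHOX2A, HAND2 and GATA3 stood above 300 CPM in every group, whereas TH averaged 0.762 CPM in NGP DMSO and 1381 CPM in CHLA-20 DMSO, MYCN 2323 and 2.34 CPM, and CHGA was at or near 0 counts in all groups. The 7 markers of glia and Schwann cells, cell types that also make contactins, summed to 2.44 to 2.45 CPM in NGP JSK591, 2.74 to 3.27 in NGP DMSO, 4.222 to 4.502 in CHLA-20 JSK591 and 5.27 to 5.68 in CHLA-20 DMSO; FOXD3 was at 0 in both CHLA-20 groups. The 6 fibroblast markers summed to 659 to 697, 585 to 604, 419 to 426 and 489.9 to 490.8 CPM in the same order of groups. COL1A1 made up most of the NGP sums (637 CPM in NGP JSK591 and 547 CPM in NGP DMSO), while 4 of the 6 (COL1A2, DCN, LUM and PDGFRB) were lower in NGP DMSO than in CHLA-20 DMSO, with a median log2 difference of -3.54 over the 6. The markers of epithelium summed to at most 5.39 CPM and those of blood to at most 0.750 CPM. The part of these markers in the results was not tested. In bulk RNA, fewer cells of a type and less RNA per cell cannot be told apart.

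Contactins are cell surface proteins built of immunoglobulin-like and fibronectin type III domains and held in the membrane by a glycosylphosphatidylinositol anchor. Having no intracellular part, they act with membrane partners: CNTN1 joins the contactin-associated protein CNTNAP1 where myelin loops meet the axon, and CNTN2 joins CNTNAP2 next to that zone. CNTN3 to CNTN6 bind the receptor phosphatase PTPRG, CNTN4 also binds the amyloid precursor protein APP, and CNTN5 and CNTN6 are best known, from mice, for auditory and cerebellar circuits.

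Upstream sequence is shown for CNTN2 and CNTN5, the 2 members that were higher with JSK591 in NGP, in the reading direction of the gene up to at most 250 bases before the RefSeq start and ending before the first GENCODE exon base (RefSeq, GRCh38.p14, plus strand). The CNTN2 window lies at chr1:205042699-205042936 and the CNTN5 window at chr11:99020699-99020948. Capitals mark GC boxes, GGGCGG on either strand, and in CNTN5 also the CCAAT box.

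CNTN2: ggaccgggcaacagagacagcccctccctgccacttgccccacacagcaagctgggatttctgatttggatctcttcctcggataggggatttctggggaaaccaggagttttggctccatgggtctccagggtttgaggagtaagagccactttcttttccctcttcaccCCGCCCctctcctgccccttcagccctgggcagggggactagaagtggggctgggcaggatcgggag

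CNTN5: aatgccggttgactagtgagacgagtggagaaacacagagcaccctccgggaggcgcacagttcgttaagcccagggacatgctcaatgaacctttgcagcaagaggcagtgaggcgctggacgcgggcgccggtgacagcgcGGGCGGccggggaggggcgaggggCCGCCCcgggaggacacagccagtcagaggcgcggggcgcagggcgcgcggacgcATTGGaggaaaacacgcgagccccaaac

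The window of another RefSeq start of CNTN2 overlaps its exons and is not shown. The CNTN2 window shown held 4 CG dinucleotides in 238 bases and the CNTN5 window 26 in 250, against a median of 11 over 34786 such windows of 250 bases. A GC box occurred in 42.6% of all windows and CCAAT on either strand in 32.0%. No window of any member held the AP-1 letters TGANTCA (6.59% of all windows) or the CRE letters TGACGTCA (1.64%), searched on both strands, and none of the patterns searched contains another. CACGTG (6.31%) was found in the CNTN3 window alone, and TATAAA (10.8%) in a window of CNTN4 alone. The CNTN3 window belongs to a RefSeq start 93519 bases from the nearest GENCODE start of that gene. The CNTN4 window with TATAAA belongs to an internal start at base 2892220, not to the first start at base 2098866. The CNTN6 window lay wholly inside a GENCODE exon and is not printed; it held 4 CG. These matches describe letters in a window and were not tied to the values below.

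The family was dominated by CNTN1 in both lines, and the order of the other members differed between the lines. Levels between genes are compared per kilobase of all annotated exons. CNTN1, whose protein is widespread on neurons and oligodendrocyte precursors, stood at 35.8 ± 0.10 CPM per kilobase in NGP JSK591 and 35.7 ± 1.1 in NGP DMSO, and at 17.0 ± 0.52 in CHLA-20 JSK591 and 19.7 ± 0.10 in CHLA-20 DMSO (mean ± SD, n = 2 each). That was 84.4% and 86.1% of the summed level of the 6 genes in the NGP groups, and 64.4% and 73.7% in the CHLA-20 groups. CNTN1 ranked 850 of 13953 tested protein-coding genes in NGP DMSO and 1824 in CHLA-20 DMSO.

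CNTN2 and CNTN4 came next, between 1.85 and 3.95 CPM per kilobase, and CNTN3, CNTN5 and CNTN6 stayed under 1 in every group. In CHLA-20 DMSO, CNTN2 was at 2.69 ± 0.05 and CNTN4 at 3.25 ± 0.04 CPM per kilobase, an order that turned with the length of the longest annotated transcript (5.97 and 5.71), because CNTN2 has 33 annotated transcripts and a union of exons of 17.8 kb against 7.999 kb for the longest. The lowest levels were those of CNTN3 in NGP DMSO, 0.123 ± 0.009, and of CNTN5 in CHLA-20 DMSO, 0.112 ± 0.030 CPM per kilobase. All 6 members passed the filter on low counts, CNTN3 with 46 summed counts in NGP JSK591 and 42 in NGP DMSO, CNTN5 with 69 in CHLA-20 DMSO. All 6 also passed a filter of at least 10 counts in every library, so none was kept only through its high group. The lowest count was 15, of CNTN3 in NGP JSK591 replicate 1.

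**Figure D1:**
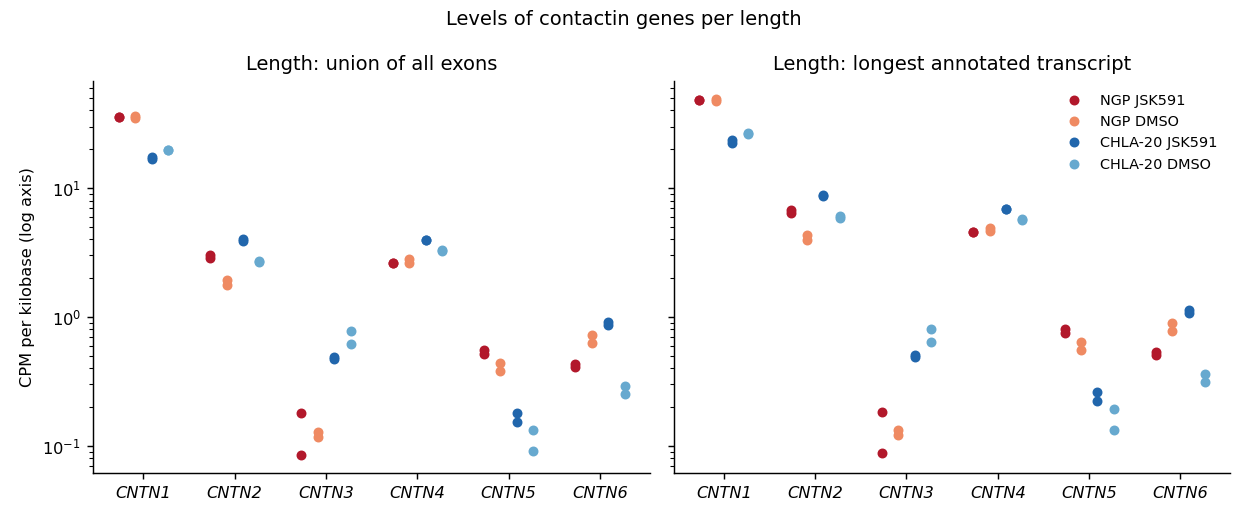
CPM per kilobase (log axis) of the 6 contactin genes in every library, with the union of all exons as the length on the left and the longest annotated transcript on the right; colours mark the 4 groups. CNTN1 lies highest in all libraries under both lengths, and CNTN3 and CNTN5 lie lowest in opposite lines.

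In NGP the question was whether PRMT5 inhibition changes contactin messages. CNTN2, an axonal adhesion protein of guidance and myelinated fibres, rose and CNTN6 fell, CNTN5 passed narrowly, and CNTN1, CNTN3 and CNTN4 did not pass. So 3 of 6 members passed (2 higher and 1 lower) by edgeR's quasi-likelihood test at a Benjamini-Hochberg adjusted p under 0.05. Over all 19395 genes tested 36.2% passed, 16.8% higher and 19.4% lower, so a count of this size in 6 genes is no result about the family. Libraries did not overlap in 4 members, 2 higher and 2 lower, and in 65.3% of all genes tested, 32.3% higher and 32.9% lower. The members' median log2 change was 0.05, against 0.00 over all genes tested.

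CNTN2 (ENSG00000184144.11, chromosome 1, 205042937 to 205078284, GRCh38) had 54.0 and 50.8 CPM in NGP JSK591, against 31.4 and 34.3 CPM in NGP DMSO. Both treated libraries lay above both vehicle libraries, and the log2 change was 0.67 ± 0.05 (estimate ± SE; edgeR adjusted p = 6.51e-16). The smallest ratio between a treated and a vehicle library was 1.48 and the largest 1.72, and 1798 of the genes tested had a larger log2 change.

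CNTN6 (ENSG00000134115.12, chromosome 3, 1092576 to 1404217) had 79 and 82 counts in NGP JSK591, against 118 and 135 in NGP DMSO. In CPM these were 2.28 and 2.41 with JSK591 and 3.52 and 4.05 with DMSO, so the groups did not overlap. The log2 change was -0.69 ± 0.17 (edgeR adjusted p = 6.08e-04), and 988 genes tested had a smaller value. CNTN6 kept this direction and call under all 15 other settings tried, with log2 changes of -0.81 to -0.60.

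CNTN5 (ENSG00000149972.10, chromosome 11, 99020953 to 100358885) had 4.71 and 5.06 CPM in NGP JSK591, against 3.99 and 3.45 CPM in NGP DMSO. The groups did not overlap, with a log2 change of 0.39 ± 0.15 (edgeR adjusted p = 0.0341). The call was lost without NGP DMSO replicate 2 (0.27, adjusted p = 0.282), without NGP JSK591 replicate 1 (0.42, adjusted p = 0.0746) or replicate 2 (0.34, adjusted p = 0.168), when every gene with a read was kept (0.39, adjusted p = 0.0927) and with DESeq2 (0.38, adjusted p = 0.25).

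The other 3 members gave small or imprecise differences in NGP. CNTN1 (ENSG00000018236.14, chromosome 12, 40692442 to 41072418) had 269 and 268 CPM with JSK591 and 273 and 262 CPM with DMSO, a log2 change of 0.00 ± 0.04 with overlapping groups (edgeR adjusted p = 0.972). CNTN4 (ENSG00000144619.14, chromosome 3, 2098813 to 3057956) had 23.76 and 23.78 CPM with JSK591 and 25.5 and 24.1 CPM with DMSO, a log2 change of -0.06 ± 0.06 (edgeR adjusted p = 0.488). CNTN3 (ENSG00000113805.8, chromosome 3, 74262568 to 74521140) had 0.433 and 0.911 CPM with JSK591 and 0.596 and 0.659 CPM with DMSO. Its treated libraries fell on both sides of the vehicle libraries, and an SE of 0.34 around a log2 change of 0.09 leaves a wide range (edgeR adjusted p = 0.866).

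**Figure D2:**
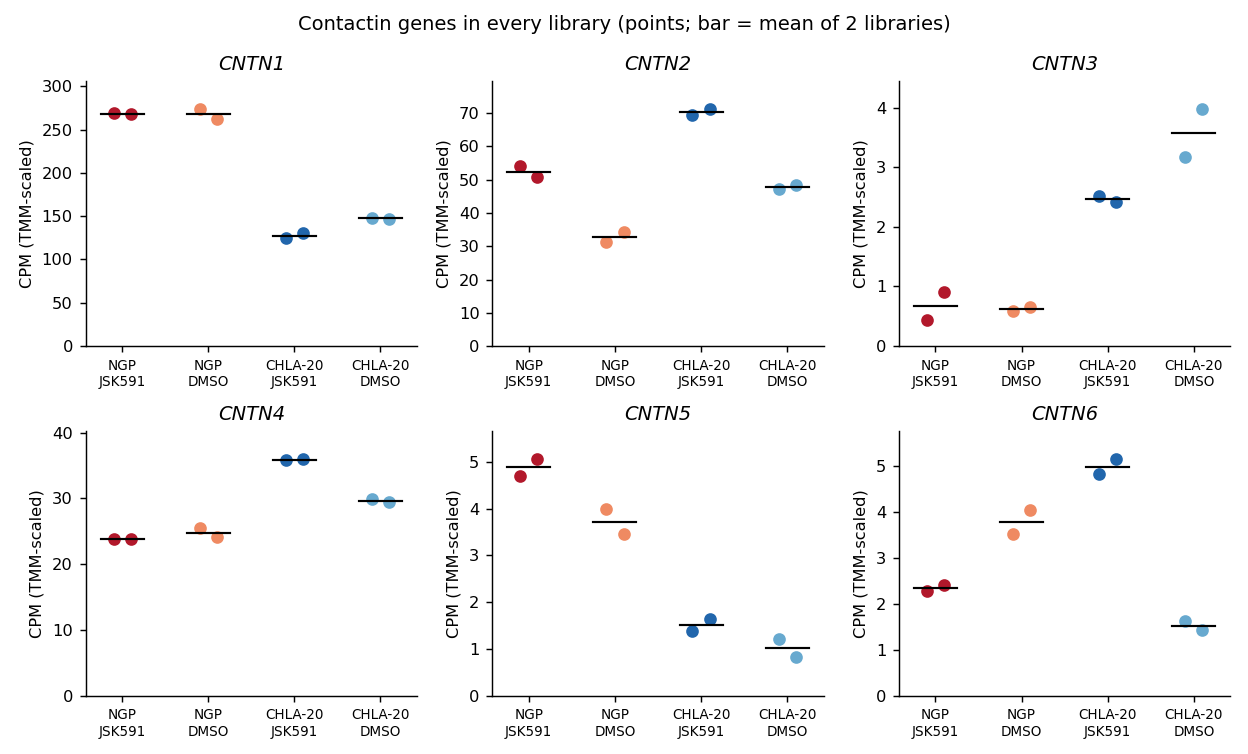
CPM of each contactin gene (TMM-scaled, linear axes from 0, a scale for each gene) in the 2 libraries of each group as points, with the group mean as a bar. CNTN2 is higher with JSK591 in both lines, while the CNTN6 libraries with JSK591 lie below DMSO in NGP and above it in CHLA-20.

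In CHLA-20 the same question gave other values for most of the family, reported here as a description. In 4 members both JSK591 libraries lay above both DMSO libraries, in 2 they lay below, and none overlapped. Over all genes tested 66.6% did not overlap, 30.6% higher and 36.0% lower, and 39.4% passed the adjusted p, 16.9% higher and 22.4% lower. Nothing is read from the members' count, since this contrast led to the family.

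CNTN6 had 167 and 173 counts in CHLA-20 JSK591, against 55 and 48 in CHLA-20 DMSO, which is 4.82 and 5.14 CPM with JSK591 and 1.63 and 1.42 CPM with DMSO. Each treated library was at least 2.96 times each vehicle library, and the log2 change was 1.71 ± 0.17, a fold of 3.26. CNTN2 had 69.3 and 71.1 CPM with JSK591 and 47.1 and 48.4 CPM with DMSO, a log2 change of 0.56 ± 0.05. CNTN2 was thus higher in every treated library of both lines, and its effect in NGP minus that in CHLA-20 was 0.12 ± 0.07. That difference was 0.00 without NGP DMSO replicate 1, 0.02 without NGP JSK591 replicate 1 and 0.05 without CHLA-20 DMSO replicate 2.

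CNTN4, an axon guidance contactin of the olfactory system in mice, had 35.8 and 36.0 CPM in CHLA-20 JSK591 and 29.9 and 29.4 CPM in CHLA-20 DMSO, a log2 change of 0.27 ± 0.06. CNTN5 had 1.39 and 1.64 CPM with JSK591 and 1.21 and 0.830 CPM with DMSO (0.56 ± 0.24). These 2 members had higher values in every treated library. CNTN1 had 125 and 130 CPM with JSK591 and 148 and 147 CPM with DMSO (-0.21 ± 0.04), and CNTN3 2.51 and 2.41 CPM with JSK591 and 3.17 and 3.97 CPM with DMSO (-0.54 ± 0.19), both lower in every treated library. Without CHLA-20 DMSO replicate 2 the value of CNTN3 was -0.34, and the value of CNTN5 was 0.86 without CHLA-20 DMSO replicate 1 and 0.34 without CHLA-20 DMSO replicate 2.

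**Figure D3:**
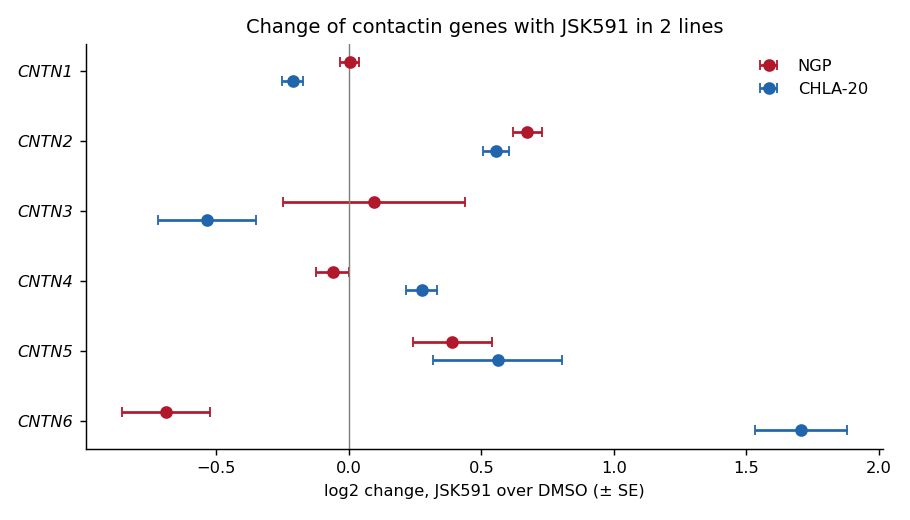
Log2 change of each contactin gene with JSK591 over DMSO (x axis; points are estimates, bars 1 SE) in NGP and CHLA-20, from one edgeR fit of 8 libraries. CNTN2 and CNTN5 lie above 0 in both lines, and CNTN6 lies at -0.69 in NGP and 1.71 in CHLA-20.

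Set side by side without a test, the effect in NGP minus that in CHLA-20 was -2.39 ± 0.24 for CNTN6, 0.63 ± 0.39 for CNTN3, -0.34 ± 0.09 for CNTN4, 0.21 ± 0.05 for CNTN1 and -0.17 ± 0.29 for CNTN5. With single libraries left out, CNTN6 stayed between -2.55 and -2.33 and CNTN4 between -0.42 and -0.34. The difference of CNTN3 was 0.00 without NGP JSK591 replicate 2, 1.02 without NGP JSK591 replicate 1 and 0.41 without CHLA-20 DMSO replicate 2, and that of CNTN1 was 0.14 without NGP DMSO replicate 2. That of CNTN5 ran from -0.47 without CHLA-20 DMSO replicate 1 to 0.03 without CHLA-20 DMSO replicate 2, which turns its sign. Over all genes tested 27.7% passed for this difference, 15.2% higher and 12.5% lower. By non-overlapping libraries, CNTN2 and CNTN5 were higher in both lines (13.8% of all genes tested), and CNTN4 and CNTN6 were lower in NGP and higher in CHLA-20 (6.60%). No member was lower in both lines (17.3%) or higher in NGP and lower in CHLA-20 (7.83%), and CNTN1 and CNTN3 overlapped in NGP.

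From the highest, the CNTN6 groups were CHLA-20 JSK591, NGP DMSO, NGP JSK591 and CHLA-20 DMSO, and no neighbours in this order overlapped. CNTN2 was highest in CHLA-20 JSK591, followed by NGP JSK591, CHLA-20 DMSO and NGP DMSO, again without overlap. For CNTN5 both NGP groups lay above both CHLA-20 groups, and for CNTN3 and CNTN4 both CHLA-20 groups lay above both NGP groups. The NGP groups overlapped in CNTN1 and CNTN3. Summed over the 6 genes, the family stood at 354 and 351 CPM in NGP JSK591 against 338 and 328 in NGP DMSO, and at 239 and 247 CPM in CHLA-20 JSK591 against 231.3 and 231.3 in CHLA-20 DMSO. Per kilobase the sums were 42.4 ± 0.12 in NGP JSK591 and 41.5 ± 1.0 in NGP DMSO (mean ± SD). They were 26.4 ± 0.65 in CHLA-20 JSK591 and 26.7 ± 0.03 in CHLA-20 DMSO, where the libraries overlapped. The treated mean in CHLA-20 was thus higher in CPM only, and per kilobase the groups were not apart.

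Untreated, the lines differed in all 5 members tested, 2 higher and 3 lower in NGP DMSO than in CHLA-20 DMSO, where 75.5% of all genes tested passed (36.6% higher and 38.9% lower). CNTN5 was higher in NGP by 1.86 ± 0.20 on the log2 scale (edgeR adjusted p = 2.17e-12) and CNTN1 by 0.86 ± 0.04 (edgeR adjusted p = 1.65e-29). CNTN3 was lower in NGP (-2.50 ± 0.25, edgeR adjusted p = 4.14e-14), as were CNTN2 (-0.54 ± 0.05, edgeR adjusted p = 1.59e-13) and CNTN4 (-0.26 ± 0.06, edgeR adjusted p = 1.61e-04). These tests share their CHLA-20 DMSO libraries with the contrast in which CNTN6 led to the family. None of the 6 overlapped between the lines, 3 being higher and 3 lower, where 86.6% of all genes tested did not overlap (42.5% higher and 44.1% lower). CNTN6, described only, was higher in NGP by 1.31 ± 0.18.

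Genomic span is a feature that the selection of the members did not use, and it differs among them. CNTN1, CNTN4, CNTN5 and CNTN6 span 380, 959, 1338 and 312 kb of genome, against 259 kb for CNTN3 and 35.3 kb for CNTN2. Of 697 tested protein-coding genes that span at least 300 kb, 14.2% were higher and 30.6% lower with JSK591 in NGP, against 17.97% and 24.39% of the 13256 shorter ones. In CHLA-20 it was 15.5% higher and 34.6% lower for the long genes and 20.0% and 28.0% for the shorter ones. The median log2 changes of the long genes were -0.10 in NGP and -0.12 in CHLA-20, against -0.02 and -0.04 for the shorter ones. The values of CNTN4, CNTN5 and CNTN6 in CHLA-20 and of CNTN5 in NGP lay above 0. CNTN1 in CHLA-20 and CNTN6 in NGP lay below the medians of the long genes. In NGP CNTN1 was at 0.00 and CNTN4 at -0.06, both above the median of the long genes there.

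CNTN6 and CNTN4 are neighbours at 3p26, 695 kb apart, and CHL1, an adhesion protein of the L1 family, lies 683 kb before CNTN6. CHL1 had 2.28 and 1.79 CPM in NGP JSK591, against 1.28 and 1.53 CPM in NGP DMSO, and it had 2.48 and 2.29 CPM in CHLA-20 JSK591, against 5.27 and 6.04 CPM in CHLA-20 DMSO. Its libraries thus did not overlap in either line, and they moved opposite to those of CNTN6 in each. The log2 change of CHL1 was 0.54 ± 0.21 in NGP (edgeR adjusted p = 0.0414), a call lost in 5 of 15 other settings, among them without NGP DMSO replicate 1, NGP DMSO replicate 2 or NGP JSK591 replicate 1 (0.33 at the lowest), and -1.24 ± 0.16 in CHLA-20 (edgeR adjusted p = 1.49e-09), with no call lost. These genes and those of the lists that follow are no members of the family and were tested in both lines with edgeR at the same threshold. Of all genes tested, 36.2% passed in NGP (16.8% higher and 19.4% lower) and 39.4% in CHLA-20 (16.9% higher and 22.4% lower). Between untreated lines 75.5% passed (36.6% higher and 38.9% lower). The counts called in these small lists are to be set beside those shares and are not read as a result about any list. Of 7 tested neighbours of the 8 listed, 3 rose and 1 fell in NGP and 3 rose and 1 fell in CHLA-20, with median log2 changes of 0.06 and 0.09. SETMAR, a histone methyltransferase fused to a transposase, rose in NGP (0.25 ± 0.07; lost without NGP DMSO replicate 2 or NGP JSK591 replicate 2, and with DESeq2) and in CHLA-20 (0.35 ± 0.07). LRRN1, a leucine-rich neuronal protein, rose in NGP by 0.34 ± 0.06 and CRBN, the substrate receptor of a ubiquitin ligase, fell by 0.23 ± 0.06. In CHLA-20 the calcium channel ITPR1 (0.20 ± 0.06) and the enzyme TRNT1 (0.19 ± 0.08) rose, calls both lost without CHLA-20 DMSO replicate 1, that of ITPR1 also without CHLA-20 JSK591 replicate 1 and that of TRNT1 without CHLA-20 JSK591 replicate 2, with DESeq2 and with every gene that had a read kept. Untreated, 4 neighbours were higher and 2 lower in NGP than in CHLA-20, with ITPR1 at 1.40 ± 0.06. IL5RA had at most 8 summed counts in a group.

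**Figure D4:**
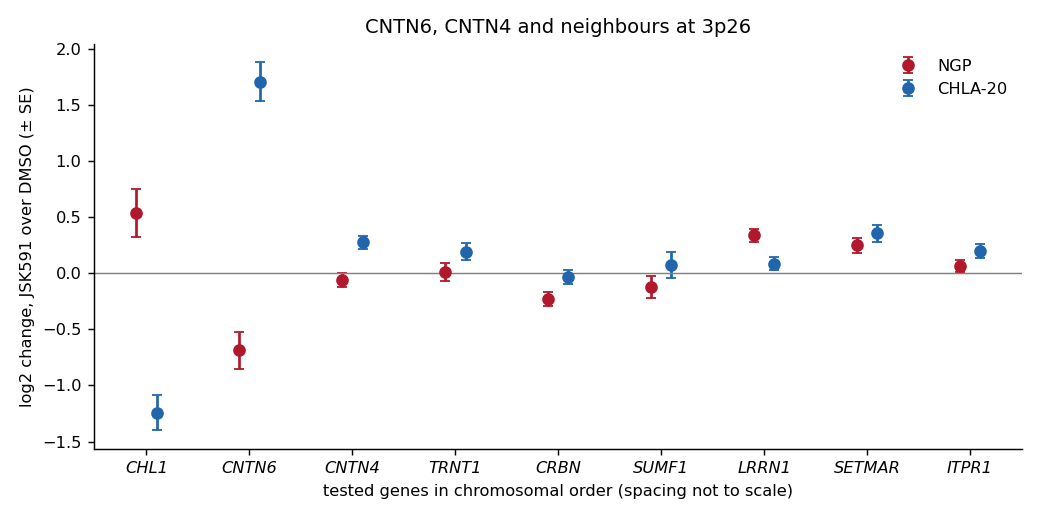
Log2 change with JSK591 over DMSO (y axis, ± SE) of CNTN6, CNTN4 and the tested neighbours at 3p26, placed in chromosomal order with spacing not to scale, in NGP and CHLA-20. CHL1 and CNTN6, side by side, have opposite signs within each line, and the genes after CNTN6 lie between -0.23 and 0.35.

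Of the contactin-associated proteins, 5 of 6 were tested, and 1 rose and 1 fell in each line. CNTNAP4, a synaptic member, fell in NGP by 0.44 ± 0.07, with 29.3 and 30.3 CPM with JSK591 against 41.6 and 39.4 CPM with DMSO, and it had 0 to 6 counts in a CHLA-20 library. CNTNAP1, the CNTN1 partner, rose in NGP by 0.17 ± 0.05 (lost without NGP DMSO replicate 1 or NGP JSK591 replicate 1) and fell in CHLA-20 by 0.43 ± 0.05. CNTNAP5 rose in CHLA-20 by 1.01 ± 0.12 (edgeR adjusted p = 4.15e-10), with 8.54 and 7.40 CPM with JSK591 against 3.85 and 4.06 CPM with DMSO, and gave 0.04 ± 0.11 in NGP without passing. CNTNAP2, the CNTN2 partner, did not pass in either line (-0.01 ± 0.09 in NGP and -0.21 ± 0.26 in CHLA-20), although CNTN2 had higher values in both. CNTNAP3 and CNTNAP3B are near-identical copies whose counts are uncertain, and CNTNAP3B stayed under the filter. Between untreated lines, 4 of these 5 genes were higher in NGP and 1 was lower, with CNTNAP2 at 14.2 CPM in NGP DMSO and 1.04 CPM in CHLA-20 DMSO.

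Among 10 binding partners, 3 rose and none fell in NGP, and 2 rose and 4 fell in CHLA-20, with medians of 0.07 and -0.11 against 0.00 and -0.02 over all genes tested. TNC, a matrix glycoprotein that binds CNTN1, rose in both lines: it had 4.71 and 4.67 CPM in NGP JSK591 against 2.30 and 2.31 CPM in NGP DMSO (1.03 ± 0.13; edgeR adjusted p = 3.97e-09), and 423 and 421 CPM in CHLA-20 JSK591 against 179 and 176 CPM in CHLA-20 DMSO (1.25 ± 0.04; edgeR adjusted p = 5.13e-36). FYN, the kinase that signals beneath CNTN1, rose in NGP by 0.27 ± 0.04 and fell in CHLA-20 by 0.19 ± 0.04. PTPRG rose in NGP by 0.18 ± 0.07, a call lost in 7 of 15 other settings, among them without NGP DMSO replicate 2, NGP JSK591 replicate 1, NGP JSK591 replicate 2 or CHLA-20 DMSO replicate 2. In CHLA-20 TNR, a relative of TNC, rose by 0.74 ± 0.25. That call was lost without CHLA-20 DMSO replicate 1 or CHLA-20 JSK591 replicate 2 and with DESeq2. APP fell in CHLA-20 by 0.25 ± 0.04. The other falls in CHLA-20 were those of APLP2, an APP relative (-0.15 ± 0.04), and of the receptor ADGRL1 (-0.09 ± 0.04, edgeR adjusted p = 0.0436), the call of ADGRL1 being lost in 11 of 15 other settings, among them without CHLA-20 DMSO replicate 2, CHLA-20 JSK591 replicate 2, NGP DMSO replicate 1, NGP DMSO replicate 2 or NGP JSK591 replicate 1. PTPRZ1, a CNTN1 receptor, passed in neither line, and its libraries overlapped in both. It stood at 12.97 CPM in NGP JSK591 against 14.4 in NGP DMSO (-0.15 ± 0.09). In CHLA-20 it stood at 0.263 CPM with JSK591 against 0.355 with DMSO (-0.43 ± 0.47), from 18 and 24 summed counts. Untreated, 3 partners were higher and 6 lower in NGP than in CHLA-20, with PTPRZ1 at 5.33 ± 0.19 and TNC at -6.27 ± 0.07.

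Of the 4 L1 family genes, 2 rose and 1 fell in NGP, and in CHLA-20 CHL1 fell and the other 3 did not pass. L1CAM rose in NGP by 0.11 ± 0.04, lost in 5 of 15 other settings, among them without NGP DMSO replicate 1, NGP DMSO replicate 2, NGP JSK591 replicate 1 or CHLA-20 DMSO replicate 2, and NFASC, the neurofascin of nodes, fell by 0.16 ± 0.05, lost without NGP DMSO replicate 2 or NGP JSK591 replicate 1. Of the 5 membrane anchors, the ankyrin ANK3 rose by 0.23 ± 0.06 in NGP and 0.27 ± 0.04 in CHLA-20, and ANK2 by 0.15 ± 0.06 and 0.26 ± 0.04, the NGP call of ANK2 being lost in 7 of 15 other settings, among them without NGP DMSO replicate 1, NGP DMSO replicate 2, NGP JSK591 replicate 1 or CHLA-20 DMSO replicate 2. EPB41L3, which ties contactin complexes to the cytoskeleton, fell in NGP by 0.24 ± 0.04. It did not pass in CHLA-20 (0.08 ± 0.04) but was called higher there in 4 of 15 other settings. The spectrin SPTBN4 fell in CHLA-20 by 0.67 ± 0.08. SPTBN1 also fell in CHLA-20, by 0.10 ± 0.04, lost in 6 of 15 other settings, among them without CHLA-20 DMSO replicate 2, CHLA-20 JSK591 replicate 2, NGP DMSO replicate 1, NGP DMSO replicate 2 or NGP JSK591 replicate 1. Untreated, 1 L1 gene was higher and 3 were lower in NGP than in CHLA-20 (CHL1 by -2.01 ± 0.18), and no anchor was higher and 4 were lower (ANK2 by -2.06 ± 0.05).

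Of 10 other neuronal immunoglobulin adhesion genes, 1 rose and 2 fell in NGP, and 3 rose and 3 fell in CHLA-20. ALCAM rose in both (0.54 ± 0.05 in NGP and 0.37 ± 0.05 in CHLA-20) and LSAMP fell in both (-0.23 ± 0.06 and -0.37 ± 0.04), while NCAM1 fell in NGP by 0.37 ± 0.04. DSCAML1 did not pass in NGP (-0.25 ± 0.11) but was called lower in 6 of 15 other settings. In CHLA-20 NTM rose by 0.84 ± 0.21, NCAM2 rose by 0.57 ± 0.05, IGLON5 fell by 0.45 ± 0.05 and NEGR1 fell by 0.40 ± 0.08. Untreated, 3 were higher and 6 lower in NGP than in CHLA-20, with DSCAML1 at 3.34 ± 0.16 and NTM at -2.68 ± 0.34.

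**Figure D5:**
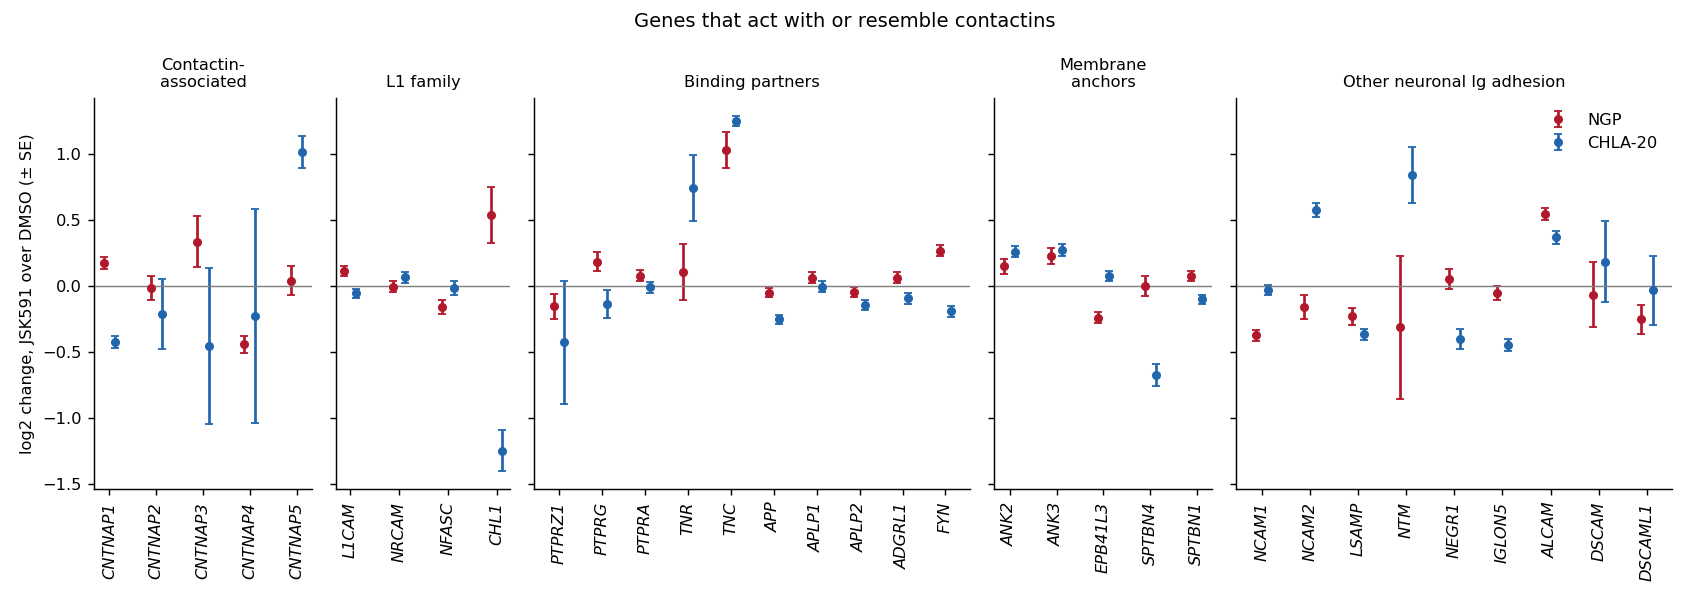
Log2 change with JSK591 over DMSO (y axis, ± SE) of tested genes that act with contactins or resemble them, by group, in NGP and CHLA-20; OPCML is left out for its low counts. TNC stands above 1 in both lines, CNTNAP5 in CHLA-20, and CHL1 has opposite signs in the 2 lines.

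Genes with the pattern most like each member were the protein-coding genes with the smallest root mean square difference of log2 CPM, centred on each gene's mean, over the 8 libraries. CNTN6 had 1 gene within 0.25, ADAM21, at 0.240, followed by CAPN6 at 0.289 and RIPOR3 at 0.299. ADAM21, a membrane metalloprotease gene, averaged 0.262 CPM in NGP JSK591, 0.433 in NGP DMSO, 0.645 in CHLA-20 JSK591 and 0.178 in CHLA-20 DMSO. These are low levels, where 3 counts come to at most 0.0904 CPM. The 8 libraries include the CHLA-20 ones in which CNTN6 led to the family. Members were not matched for count or spread, so the numbers of genes within 0.25 are not compared between members. The nearest to CNTN2 were ZNF780B (0.068), PHLDA3 (0.072) and ZNF124 (0.086), among 498 genes within 0.25. The nearest to CNTN5 were HOXA5 (0.102), PCDHGA12 (0.127) and TMPRSS15 (0.134), among 38 within 0.25, and to CNTN3 ZFYVE28 (0.200), PNMA8C (0.206) and PER3 (0.210), among 16. The nearest to CNTN1 were NAB2 (0.028), GON4L (0.037) and MTSS1 (0.040), among 1471, and to CNTN4 NRIP1 (0.028), SEC22B (0.033) and SLF1 (0.034), among 3145.

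Whether reads were counted by strand is not given in the sources used here, and 9 annotated genes overlap the members' spans, none with more than 32 counts in a library. CNTN4 alone shares exon bases, 685 of them (7.51% of its exonic bases), with CNTN4-AS1, which had 7 to 26 counts.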

How the data were processed

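Messenger RNA of 8 libraries was sequenced on a DNBseq instrument, per the labels' protocols. The authors deposited raw counts per gene, 1 library per file. STAR, HTSeq and DESeq2 with GRCh38 (hg38) are named per the submitters' processing notes; versions, annotation and strand setting are not given in the sources used here. All 58721 identifiers were found in GENCODE 29. Reads outside genes were 5.15% to 6.86% of counted reads, ambiguous ones 6.77% to 7.18% and multiply aligned ones 19.2% to 22.0%, and stayed out of all totals.

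Counts were analysed with edgeR 4.0.16 in R 4.3.3 (DESeq2 1.42.0 as an alternative) and Python 3.11.15. filterByExpr kept 19395 genes, scaling was TMM, and a quasi-likelihood model of 4 group means was fitted to all libraries, with 4 residual degrees of freedom and a biological coefficient of variation of 2.76%. P-values were Benjamini-Hochberg adjusted over all genes tested, threshold 0.05. The SE was derived from the F value. CPM use TMM-scaled library sizes. The fitting steps were also run on counts simulated from the fit's own means and dispersions, with changes planted in known genes. Such a run checks the steps and cannot show whether the model suits these libraries. Replicate pairs differed by a chi-square of 2.05 to 3.11 per degree of freedom, and no pair was a duplicate.

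The members and lists were chosen with earlier results of these data known. Named were all 6 members, their 3 nearest genes by pattern, and up to 4 called genes per list and contrast with the largest changes (between untreated lines fewer). Some further called genes, such as APLP2 and ADGRL1, and genes not called with JSK591, such as CNTNAP2 and PTPRZ1, are named as well. The partner, L1, anchor, neighbour and marker lists are described by counts. Alternatives were DESeq2 size factors, total counts, no filter, at least 10 counts in every library, DESeq2, replicate blocks, each library left out, and transcript length for levels.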

Additional observations from a re-analysis of the deposited data

Results flagged for a closer look

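In CNTN6 every NGP library with JSK591 lay below and every CHLA-20 library with JSK591 above its vehicle libraries, and the effect in NGP minus that in CHLA-20 was -2.39 on the log2 scale. The same order of libraries held for CNTN4, with a difference of -0.34, although its NGP libraries were apart by little. Its change in NGP, -0.06 ± 0.06, did not pass (edgeR adjusted p = 0.488). Of all genes tested, 6.60% were lower in NGP and higher in CHLA-20 by non-overlapping libraries. Neither the difference of CNTN6 nor that of CNTN4 was tested, since the CHLA-20 values led to the family.

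For genes outside the family the difference of the effects was tested with edgeR's interaction contrast, in which 27.7% of all genes passed. The effect in NGP was above that in CHLA-20 for CHL1 (1.78), SPTBN4 (0.67), CNTNAP1 (0.60), FYN (0.46), NEGR1 (0.45), IGLON5 (0.39), LRRN1 (0.25), APP (0.20), ALCAM (0.18), SPTBN1 (0.18) and L1CAM (0.17), all on the log2 scale. It was below that in CHLA-20 for CNTNAP5 (-0.97), NCAM2 (-0.73), NCAM1 (-0.34) and EPB41L3 (-0.32). ADGRL1 also passed (0.16, edgeR adjusted p = 0.028), a call lost in 8 of 15 other settings. The calls of ALCAM, L1CAM, LRRN1 and SPTBN1 were lost in 10, 6, 6 and 4 of 15 other settings.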

How the results depend on the processing

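The counts of genes called stayed within 1.5 times the main counts of 7021 in NGP, 14637 between untreated lines, 7639 in CHLA-20 and 5368 for the difference of effects in all 15 alternatives. The split of higher and lower calls was less steady: in NGP it was 3266 and 3755, against 3586 and 3222 with total counts and 2022 and 3064 with DESeq2. For the difference it was 2950 and 2418, against 2670 and 2773 with DESeq2 size factors, 1758 and 1908 with DESeq2 and 1989 and 2698 without NGP DMSO replicate 1. Between untreated lines it was 7089 and 7548, against 7357 and 7255 with total counts. With each library left out in turn the counts called were 5556 to 7256 in NGP, 13948 to 14947 between untreated lines, 5920 to 7708 in CHLA-20 and 4154 to 4882 for the difference of effects. With the replicate number as a replicate block they were 7013, 14615, 7644 and 5397; same-numbered libraries did not deviate together (correlations of -0.027 to 0.012), so the numbers were not taken to pair libraries, and the block changed no member's call. Among tested values of members, CNTN5 in NGP was the one whose call changed, in 5 alternatives; the cause was not tested. CNTN2 in NGP ranged from 0.58 to 0.72 and CNTN6 in CHLA-20 from 1.64 to 1.81. Low counts limit CNTN3 in NGP, whose log2 change ran from -0.53 to 0.51, and CNTN5 in CHLA-20.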
